A study of Mus musculus with 9 samples.

Results

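The genes described here encode elastic fibre proteins, fibulins and a matricellular protein: Eln, Fbn1, Fbln1, Fbln2, Fbln5, Fbln7, Mfap4, Mfap5, Smoc2 and Efemp2, which is 10 of the 54532 genes in the deposited tables. They were named by symbol, and the list was drawn up with results of these libraries known. The rule names no comparison, but Fbln7, Mfap4 and Smoc2 were chosen by their large falls from the Undifferentiated level in earlier results of these libraries. Values of all 10 genes against Undifferentiated cells are therefore given as a description with no test, and only Lysfree vs Differentiated, which has the Differentiated and Lysfree libraries in common with them, was tested. For Fbln7, Mfap4 and Smoc2 these libraries took part in the choice, so the p values of these genes are not independent of it. RNA was sequenced from 3T3-L1, a mouse preadipocyte line that was kept confluent for 3 days. One set of cells was left undifferentiated (Undifferentiated), another was given an adipogenic medium that held insulin (10 μg/mL), rosiglitazone (1 μM), the phosphodiesterase inhibitor 3-isobutyl-1-methylxanthine (0.5 mM) and the glucocorticoid dexamethasone (1 μM), with lysine added (Differentiated), and the last was given the same medium with no lysine added (Lysfree), which by the study's own measurement still held traces of it. Per the study's methods, the basal medium and the serum (calf or fetal bovine) also differed between undifferentiated cells and both adipogenic media, so the hormones and these changes cannot be told apart in comparisons with the Undifferentiated group. Each group had n = 3 libraries, all from the same cell line, and the labels do not say whether they came from separate cultures, so p values measure the spread between these libraries, which may be technical.

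Elastic fibres have a core of elastin laid on a scaffold of fibrillin microfibrils. Soluble elastin is drawn to the microfibrils by short fibulins and is then crosslinked through its lysine residues by lysyl oxidases. Matricellular proteins are secreted into the matrix without forming its fibres and act on cell adhesion and growth factor signalling. Preadipocytes are fibroblast-like cells that deposit such a matrix and remodel it as they become adipocytes.

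Total counts ran from 15880144 to 21806693 per library (median 17784064). Levels are given as FPKM, fragments per kilobase of gene length scaled to the library total, so that different genes can be roughly set side by side. The deposited length counts all exons of a gene. It exceeds the longest coding transcript of Eln (8098 against 3853 bases) and Smoc2 (6951 against 2832). The levels of such genes may be understated beside those of other genes. The adipocyte markers (8 genes, among them Adipoq, Fabp4 and Pparg) summed to 314 to 395 FPKM in Undifferentiated libraries, 6890 to 7245 in Differentiated libraries and 292 to 408 in Lysfree libraries. The fibroblast and preadipocyte markers (8 genes, among them Pdgfra, Dlk1 and Col1a1) summed to 5332 to 5721, 1350 to 1360 and 1947 to 2029 FPKM, and Lum was the gene of that list with a mean under 1 FPKM in Lysfree cells. Of the 5 smooth muscle markers, Myh11 and Cnn1 had means under 1 FPKM in every group, while Acta2 was at 57.3, 2.40 and 23.6 FPKM, and the list summed to 67.6 to 69.6, 13.2 to 14.2 and 26.6 to 29.7 FPKM. All 5 endothelial markers had means under 1 FPKM in every group (sums of at most 0.630 FPKM, Kdr at 0 in Undifferentiated and Differentiated cells). Of the 5 macrophage markers Adgre1 and Itgam were at 0 in all libraries and Ptprc and Csf1r under 1 FPKM, and Cd68 made up most of the sums of 1.63 to 1.92, 3.44 to 5.01 and 3.62 to 4.85 FPKM. The summed level of the fibroblast list was lower in both media than in Undifferentiated cells, as were all 10 elastic fibre genes, though Thy1 and Vim were not lower in Lysfree cells. From Differentiated to Lysfree cells this sum was higher, while Col1a1 and Lum of the list were lower, and the 10 genes went both ways. The part of this list in the changes was not tested. The similar adipocyte sums of Undifferentiated and Lysfree libraries covered genes that went both ways. Adipoq (means of 57.8 and 4.18 FPKM), Cidec, Cebpa, Pparg and Plin1 were lower in all Lysfree libraries than in any Undifferentiated library. Cd36 (16.6 and 72.7 FPKM) and Lpl were higher in all of them, and Fabp4 overlapped. In bulk RNA, fewer cells of a type and less RNA per cell cannot be told apart. A chi-square test of counts between 2 replicates, divided by its degrees of freedom, gave 2.76 to 12.3, except for Lysfree 1, at 43.3 and 44.4 against Lysfree 2 and 3. Results were therefore also computed without Lysfree 1.

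All 10 genes were lower in every Differentiated library and in every Lysfree library than in any Undifferentiated library. Over all genes tested, 24.7% lay wholly below in Differentiated vs Undifferentiated and 23.2% in Lysfree vs Undifferentiated. The mean was at least 2-fold lower for 9 of the 10 genes in Differentiated cells (all but Fbln5) and for 7 in Lysfree cells (all but Fbn1, Fbln2 and Fbln5). Falls from the Undifferentiated level chose Fbln7, Mfap4 and Smoc2, and the whole list was drawn up with results of these libraries known. Nothing is read from these counts. The genes differed widely in how much of their undifferentiated level was left. In Differentiated cells the means ran from 51.9% (Fbln5) to 0.373% (Fbln7) of the Undifferentiated mean, and in Lysfree cells from 83.3% (Fbn1) to 0.117% (Mfap4).

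**Figure D1:**
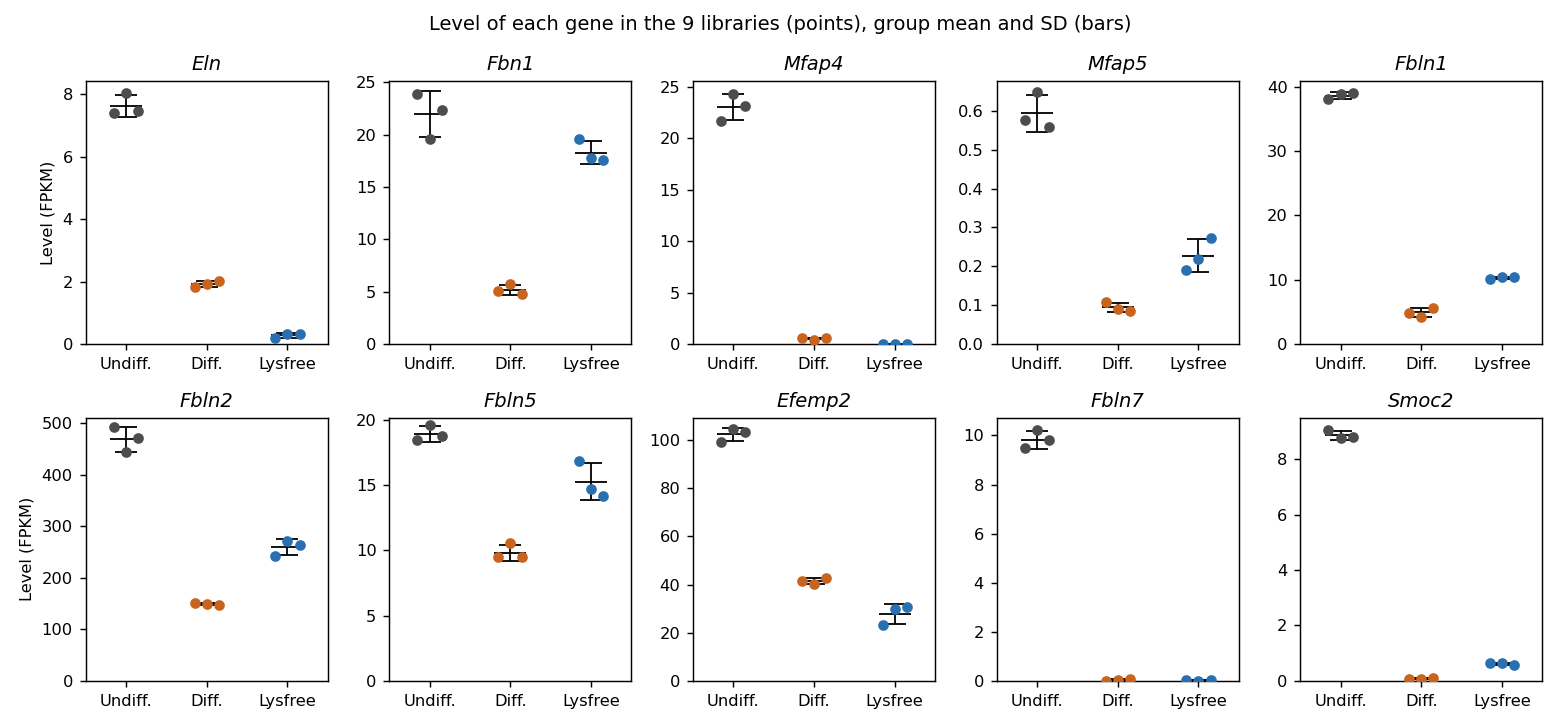
Level of each of the 10 genes in FPKM (y axis, from 0, own scale per gene) in the 3 libraries of each group (points), with group mean and SD (bars). Every gene is highest in the Undifferentiated libraries; Lysfree lies above Differentiated for Fbn1, Mfap5, Fbln1, Fbln2, Fbln5 and Smoc2 and below it for Eln, Mfap4 and Efemp2.

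**Figure D2:**
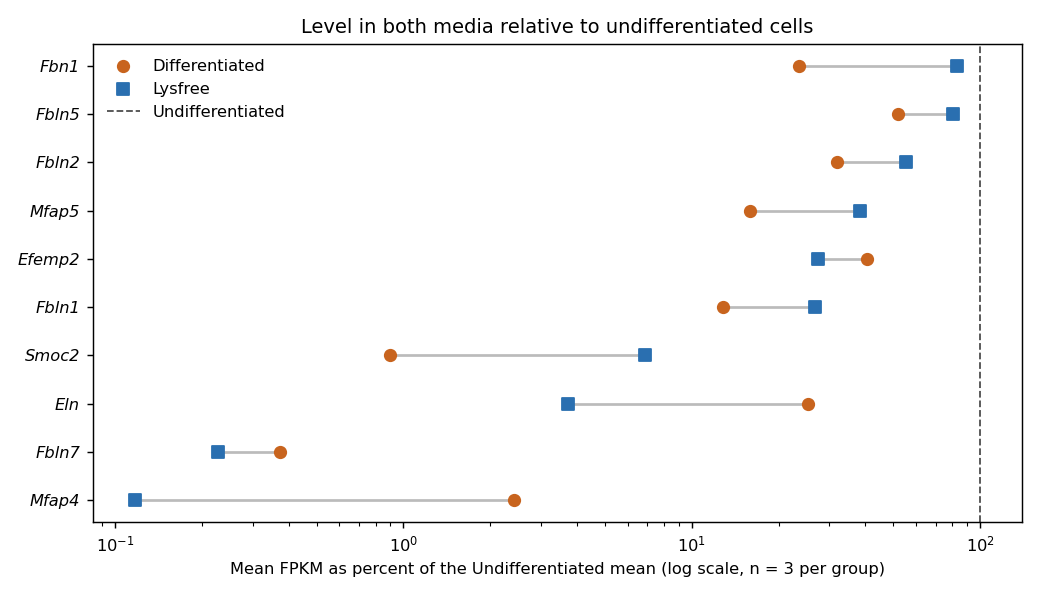
Mean FPKM in Differentiated (circles) and Lysfree (squares) cells as a percent of the Undifferentiated mean (log x axis, dashed line at 100), n = 3 per group. Fbn1 kept 83.3% and Fbln5 80.6% in Lysfree cells, against 23.6% and 51.9% in Differentiated cells, while Eln kept 3.72% against 25.2%.

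Lysfree and Differentiated libraries were compared to see what differed between the adipogenic media without and with added lysine. Adipocyte markers differed between these groups too, with Adipoq at 4.18 FPKM in Lysfree and 933 FPKM in Differentiated cells. A lack of lysine and a lack of adipocyte differentiation therefore cannot be told apart in this comparison. Of the 10 genes, 9 had an edgeR adjusted p under 0.05 (38.5% of all genes tested), 6 of them higher (19.7%) and 3 lower (18.8%) in Lysfree cells. The libraries of the groups did not overlap for the same 9 genes, 6 with all Lysfree libraries above (21.3% of all genes tested) and 3 with all below (25.3%). With an at least 2-fold change and an edgeR adjusted p under 0.05, the study's thresholds for a differentially expressed gene (DEG), 6 of the 10 genes were called (18.7% of all genes tested, and 28.1% of those that pass edgeR's expression filter), with Fbn1, Fbln1, Mfap5 and Smoc2 upregulated (8.14% of all genes were higher DEGs) and Eln and Mfap4 downregulated (10.5% were lower DEGs). Fbln2, Fbln5 and Efemp2 passed the adjusted p and stayed under 2-fold. Fbln7 was close to 0 in both groups. The expression filter was passed by 9 of the 10 genes in this comparison, and all 10 were tested. The median log2 fold change of the 10 genes was 0.78, against -0.06 over all genes tested. These counts and the median include Fbln7, Mfap4 and Smoc2, in whose choice the same libraries took part. Beside the shares over all genes they are therefore a description.

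**Figure D3:**
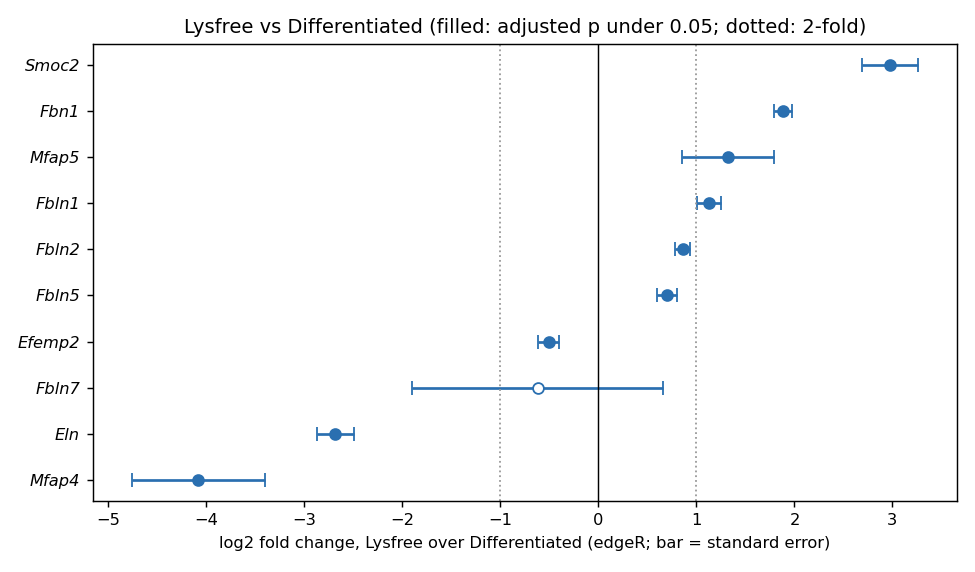
Log2 fold change of Lysfree over Differentiated for the 10 genes (edgeR, bars are standard errors, n = 3 per group), with filled points at an adjusted p under 0.05 and dotted lines at a 2-fold change. Smoc2 is highest at 2.98 and Mfap4 lowest at -4.08; Fbln7, the open point, has a wide error and had at most 4 counts in each of these libraries.

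Eln and Fbn1, which encode the core and the scaffold of the elastic fibre, went in opposite directions. Eln (elastin, ENSMUSG00000029675, chromosome 5, 134702593 to 134747323 in the deposited GRCm38 coordinates used throughout, minus strand) stood at 7.39, 8.02 and 7.46 FPKM in the Undifferentiated libraries, 1.82, 1.94 and 2.01 in the Differentiated libraries and 0.204, 0.317 and 0.331 in the Lysfree libraries. The 3 groups did not overlap, and Lysfree was the lowest. Elastin mRNA was 6.42-fold lower in Lysfree than in Differentiated cells (log2 fold change -2.68 with a standard error, SE, of 0.19, edgeR adjusted p = 2e-10), and -2.52 without Lysfree 1. Fbn1 (fibrillin-1, ENSMUSG00000027204, chromosome 2, 125300594 to 125507993, minus strand), the main microfibril protein, stood at 23.9, 19.6 and 22.4 FPKM in the Undifferentiated, 5.04, 5.70 and 4.79 in the Differentiated and 19.6, 17.7 and 17.6 in the Lysfree libraries. The Undifferentiated and Lysfree groups nearly touched, with Undifferentiated 2 at 19.60 and Lysfree 1 at 19.58 FPKM, while Differentiated lay far below both. Fibrillin-1 was 3.69-fold higher in Lysfree than in Differentiated cells (log2 fold change 1.88, SE 0.10, edgeR adjusted p = 1.2e-12). The ratio of Eln to Fbn1 within a library does not depend on how libraries are scaled, and was computed after the levels had been seen. It was 0.351 ± 0.0523 (SD, n = 3) in Undifferentiated, 0.373 ± 0.0414 in Differentiated and 0.0157 ± 0.00463 in Lysfree cells, so that elastin and fibrillin-1 fell by about the same factor with lysine and apart from each other without it.

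**Figure D4:**
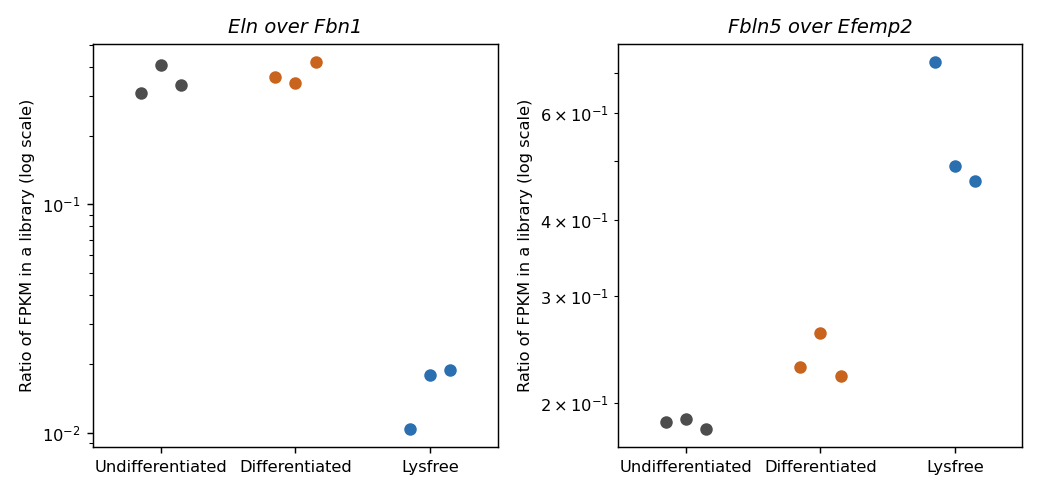
Ratio of 2 genes' FPKM within each library (log y axis, 3 points per group), for Eln over Fbn1 (left) and Fbln5 over Efemp2 (right). Eln over Fbn1 is 0.309 to 0.419 in the 6 Undifferentiated and Differentiated libraries and 0.0104 to 0.0189 in the Lysfree libraries; Fbln5 over Efemp2 is 0.181 to 0.261 in the former and 0.464 to 0.728 in the latter.

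The microfibril-associated genes were split in the same way. Mfap4 (ENSMUSG00000042436, chromosome 11, 61485431 to 61488900, plus strand) encodes an integrin-binding glycoprotein of elastic fibres. It stood at 21.7, 24.3 and 23.1 FPKM in the Undifferentiated libraries and at 0.605, 0.447 and 0.612 in the Differentiated libraries, and had 0, 1 and 2 counts in the Lysfree libraries. A low level was left in Differentiated cells (53 counts in all) that was almost lost in Lysfree cells (3 counts in all), a ratio of 19.0 with a 95% exact interval of 6.15 to 94.99 that covers counting error only. The fit put the change at -4.08 on the log2 scale (SE 0.68, edgeR adjusted p = 3.9e-05), and it was -3.61 without Lysfree 1 and -4.90 without Lysfree 3. limma on log2(FPKM + 1), which understates changes at such levels, put it at -0.60. Mfap4 overlaps the 3' end of Mapk7 on the other strand by 89 bases, all exonic in both genes and 4.63% of the exonic bases of Mfap4, and Mapk7 had 813 to 1187 counts in the Lysfree libraries. Whether strand was used in counting is not given in the sources used here, and without it reads of these bases cannot be told apart. Mfap5 (MAGP-2, ENSMUSG00000030116, chromosome 6, 122505845 to 122529290, plus strand), a small protein that binds fibrillin, was the weakest of the 10 genes in Undifferentiated cells, at 0.575, 0.648 and 0.557 FPKM. It stood at 0.108, 0.0898 and 0.0862 FPKM in Differentiated and at 0.190, 0.219 and 0.273 FPKM in Lysfree libraries, which did not overlap. Its 2.49-fold rise in Lysfree cells rests on 17 against 46 counts in all (log2 fold change 1.32, SE 0.47, edgeR adjusted p = 0.031). The call was lost with DESeq2 (adjusted p = 0.08), with the replicate number as a block (edgeR adjusted p = 0.065) and without any one Differentiated library, Lysfree 2 or Lysfree 3 (edgeR adjusted p = 0.055 to 0.13).

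Fbln5 and Efemp2 encode fibulin-5 and fibulin-4, short fibulins that both bind elastin and are both needed to assemble elastic fibres. Their mRNAs went in opposite directions between Differentiated and Lysfree cells, each by less than 2-fold. Fbln5 (ENSMUSG00000021186, chromosome 12, 101746565 to 101819055, minus strand) stood at 18.5, 19.7 and 18.7 FPKM in the Undifferentiated, 9.48, 10.5 and 9.47 in the Differentiated and 16.9, 14.7 and 14.2 in the Lysfree libraries. Of the 10 genes it fell least in Differentiated cells, where 51.9% of the Undifferentiated mean was left, and it was 1.62-fold higher in Lysfree than in Differentiated cells (log2 fold change 0.70, SE 0.10, edgeR adjusted p = 5e-06), and 0.60 without Lysfree 1. Efemp2 (ENSMUSG00000024909, chromosome 19, 5473973 to 5481853, plus strand) stood at 99.2, 105 and 103 FPKM in the Undifferentiated, 41.4, 40.4 and 42.7 in the Differentiated and 23.2, 30.0 and 30.6 in the Lysfree libraries. It was 1.42-fold lower in Lysfree than in Differentiated cells (log2 fold change -0.50, SE 0.11, edgeR adjusted p = 0.00061), and -0.41 without Lysfree 1, the lowest of these libraries. The level of Fbln5 over that of Efemp2 was 0.185 ± 0.00332 (SD, n = 3) in Undifferentiated, 0.237 ± 0.0208 in Differentiated and 0.561 ± 0.145 in Lysfree cells. The deviating Lysfree 1 had the highest ratio, 0.728, against 0.491 and 0.464 in Lysfree 2 and 3.

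The long fibulins Fbln1 and Fbln2, found in basement membranes and on elastic fibres, were both partly kept without lysine. Fbln2 (ENSMUSG00000064080, chromosome 6, 91212455 to 91272540, plus strand) was by far the most abundant of the 10 genes, at 492, 443 and 471 FPKM in the Undifferentiated, 152, 149 and 148 in the Differentiated and 242, 272 and 263 in the Lysfree libraries. It was 1.82-fold higher in Lysfree than in Differentiated cells (log2 fold change 0.86, SE 0.08, edgeR adjusted p = 5.8e-09). Fbln1 (ENSMUSG00000006369, chromosome 15, 85205949 to 85286535, plus strand) stood at 38.0, 38.9 and 39.0 FPKM in the Undifferentiated, 4.91, 4.25 and 5.67 in the Differentiated and 10.1, 10.4 and 10.5 in the Lysfree libraries. Fbln1 fell further than Fbln2 in both media, to 12.8% and 26.7% of the Undifferentiated mean, and was 2.18-fold higher in Lysfree than in Differentiated cells (log2 fold change 1.13, SE 0.12, edgeR adjusted p = 1.1e-07). Fbln2 made up 65.4% to 68.3% of the summed FPKM of the 10 genes in Undifferentiated, 69.3% to 70.5% in Differentiated and 77.4% to 78.6% in Lysfree libraries. The sum over the 10 genes was 700.4 ± 21.2 FPKM (SD, n = 3) in Undifferentiated, 213 ± 1.34 in Differentiated and 332 ± 16.8 in Lysfree cells. Without Fbln2 the sums were 232 ± 3.60, 64.1 ± 1.21 and 73.0 ± 1.85 FPKM.

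Fbln7 (ENSMUSG00000027386, chromosome 2, 128862981 to 128897034, plus strand), a fibulin that takes part in cell adhesion, was lost in both media. It stood at 9.48, 10.2 and 9.81 FPKM in the Undifferentiated libraries, with 1882 counts in all, and had 0, 2 and 4 counts in the Differentiated and 2, 0 and 2 counts in the Lysfree libraries. The Undifferentiated level was 271 times that of Differentiated cells (6 counts in all) and 437 times that of Lysfree cells (4 counts in all). The 95% exact intervals, for counting error only, were 124 to 740 and 170 to 1605 and overlapped widely. At these counts no fold between Differentiated and Lysfree cells is given, and the groups overlapped (edgeR adjusted p = 0.73). Smoc2 (ENSMUSG00000023886, chromosome 17, 14279506 to 14404790, plus strand), a calcium-binding matricellular protein of the SPARC family, fell nearly as far in Differentiated cells but not in Lysfree cells. It stood at 9.04, 8.74 and 8.79 FPKM in the Undifferentiated, 0.0651, 0.0850 and 0.0891 in the Differentiated and 0.630, 0.634 and 0.563 in the Lysfree libraries. Differentiated cells had 28 counts of it in all and Lysfree cells 237, and the log2 fold change of 2.98 (7.87-fold, SE 0.29, edgeR adjusted p = 2.3e-08) was the largest rise of the 10 genes. Lysfree cells still held only 6.88% of the Undifferentiated level of Smoc2.

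The promoter windows of RefSeq (GRCm38.p6, 250 bases before to 50 after a gene's start) were matched for 6 of the 10 genes, with 10 windows, and not for Eln, Mfap4, Mfap5 and Smoc2. Windows of 4 genes are shown because their mRNAs stood at the ends of the pattern: Fbln7, almost lost in both media, Fbn1 and Fbln5, the best kept without lysine, and Efemp2, lower without lysine. They lie at chr2:128863682-128863981 (Fbln7, plus strand), chr2:125506389-125506688 (Fbn1, minus strand), chr12:101818435-101818734 (Fbln5, minus strand, the second of 2 starts) and chr19:5473696-5473995 (Efemp2, plus strand, the first of 3 starts), each written 5′ to 3′ on the gene's strand. The RefSeq starts of Fbln7 and Fbn1 lie inside the genes as deposited, downstream of their outer start. Capitals mark matches on either strand to 7 motifs: the TATA box (TATAAA), the GC box (GGGCGG), the AP-1 site (TGACTCA), the cAMP response element (TGACGTCA), the ATF4 composite element (TGATGNAA), the TEAD site (GGAATG) and the core of the glucocorticoid receptor site (AGAACA). GC box matches can overlap each other.
Fbln7: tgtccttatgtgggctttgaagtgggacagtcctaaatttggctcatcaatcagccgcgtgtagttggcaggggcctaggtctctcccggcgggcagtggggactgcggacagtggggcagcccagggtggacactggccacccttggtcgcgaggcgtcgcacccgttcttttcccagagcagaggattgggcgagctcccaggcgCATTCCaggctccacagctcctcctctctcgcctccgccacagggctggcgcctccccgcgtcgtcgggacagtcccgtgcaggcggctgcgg
Fbn1: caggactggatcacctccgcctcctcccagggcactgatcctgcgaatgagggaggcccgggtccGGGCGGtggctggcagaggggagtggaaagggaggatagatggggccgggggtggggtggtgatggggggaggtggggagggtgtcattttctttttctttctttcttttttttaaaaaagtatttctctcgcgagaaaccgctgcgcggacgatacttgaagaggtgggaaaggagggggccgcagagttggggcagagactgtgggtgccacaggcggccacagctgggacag
Fbln5: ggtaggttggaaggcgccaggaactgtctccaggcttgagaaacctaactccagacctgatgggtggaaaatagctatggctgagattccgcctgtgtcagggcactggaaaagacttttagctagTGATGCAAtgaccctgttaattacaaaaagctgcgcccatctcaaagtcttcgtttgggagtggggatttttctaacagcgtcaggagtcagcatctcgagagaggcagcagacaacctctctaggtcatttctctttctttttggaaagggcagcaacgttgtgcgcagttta
Efemp2: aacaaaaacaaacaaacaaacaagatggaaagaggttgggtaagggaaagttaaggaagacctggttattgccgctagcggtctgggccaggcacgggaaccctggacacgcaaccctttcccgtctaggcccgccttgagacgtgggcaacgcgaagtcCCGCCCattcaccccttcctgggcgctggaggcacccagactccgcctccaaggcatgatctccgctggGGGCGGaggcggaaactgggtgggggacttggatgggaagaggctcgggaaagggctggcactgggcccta

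Of these motifs the GC box was the common one, with a match in 7 of the 10 windows, from 5 of the 6 genes (all but Fbln7), against 35.7% of all 32851 windows. Windows of a gene can share bases, as those of Efemp2 at chr19:5474440-5474739 and chr19:5474485-5474784 do. The GC content of the 10 windows ran from 48.7% to 78.3%, against a median of 52.7% over all windows. The share with a GC box was not tested. The windows of these 10 include no match to the TATA box (13.6% of all windows), the AP-1 site (5.2%) or the cAMP response element (1.79%). A single match each was found for the ATF4 composite element in Fbln5 (3.97% of all windows), for the TEAD site in Fbln7 (14.7%) and for the glucocorticoid receptor site in Fbln1 (19%). A match is a string of letters and not a measured site.

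The other genes of elastic fibre assembly and the other matricellular genes were taken from a list of 64 symbols, all of which were found in the tables. In Differentiated vs Undifferentiated, 59 were tested and 38 were lower and 3 higher DEGs, with 18 not past the thresholds (all genes: 11.4% lower, 10.4% higher). The 3 that rose, named after their values were seen, were Emilin2, Loxl2 and Smoc1, the last of these the closest relative of Smoc2. Their means in Undifferentiated and Differentiated cells were low, at 0.0733 and 0.409 FPKM (Emilin2), 0.151 and 0.706 (Loxl2) and 0.407 and 1.77 (Smoc1). In Lysfree vs Undifferentiated, 58 were tested and 23 were lower and 3 (Adamtsl2, Thbs3 and Nov, also named after their values were seen) higher DEGs (all genes: 8.76% lower, 5.52% higher). Of these 3, Adamtsl2 (0.0315 and 0.0970 FPKM in Undifferentiated and Lysfree cells) and Nov (0.406 and 1.59) were also weak. Lysfree vs Differentiated had 21 higher and 9 lower DEGs among 60 tested (all genes: 8.14% higher, 10.5% lower), and their median log2 fold change was 0.75 against -0.06 over all genes.

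**Figure D5:**
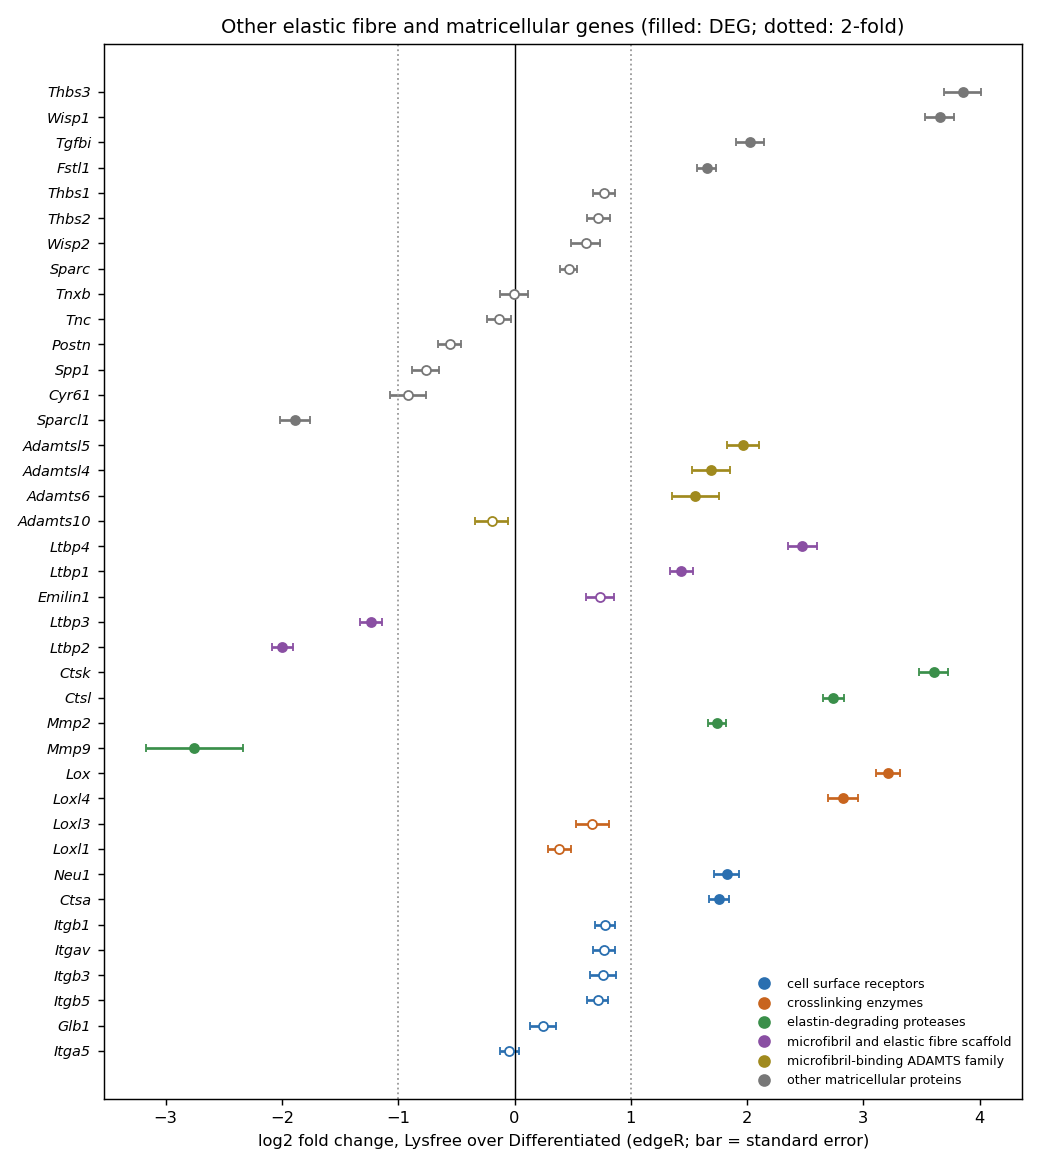
Log2 fold change of Lysfree over Differentiated (edgeR, bars are standard errors, n = 3 per group) for the 39 other elastic fibre and matricellular genes with a mean of at least 1 FPKM, coloured by role and filled where the gene is a DEG. Thbs3 (3.85), Wisp1 (3.66), Ctsk (3.60) and Lox (3.21) are the largest rises, and Mmp9 (-2.75), Ltbp2 (-2.00) and Sparcl1 (-1.89) the largest falls.

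Among 12 scaffold genes, 4 rose and 3 fell in Lysfree vs Differentiated. Both counts include genes with a mean under 1 FPKM over the 9 libraries. The latent TGF-beta binding proteins, which are built like fibrillins and most of which tether TGF-beta to microfibrils, were divided between both directions. Ltbp4, at 5.04 ± 0.374, 1.59 ± 0.187 and 8.46 ± 0.537 FPKM (SD, n = 3) in Undifferentiated, Differentiated and Lysfree cells, rose by 2.48 on the log2 scale in Lysfree vs Differentiated (SE 0.13, edgeR adjusted p = 1e-12), and Ltbp1 by 1.43 (edgeR adjusted p = 1.3e-10). Ltbp2 went the other way, from 56.0 ± 2.90 and 35.7 ± 1.62 FPKM in Undifferentiated and Differentiated cells to 8.57 ± 0.179 FPKM in Lysfree cells (log2 fold change -2.00 against Differentiated, SE 0.09, edgeR adjusted p = 1.2e-13). Ltbp3 was at 63.2, 70.4 and 28.6 FPKM in the same groups (-1.23, edgeR adjusted p = 8.4e-10). Of the 7 ADAMTS family genes whose proteins bind microfibrils, 4 rose and none fell by these thresholds, with Adamtsl5 (1.97), Adamtsl4 (1.69) and Adamts6 (1.56) as the largest among those of at least 1 FPKM.

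The 5 crosslinking enzymes, which act on the lysines of elastin, had 2 higher DEGs and 1 lower. The lower one had a mean under 1 FPKM over the 9 libraries. Lox was at 468 ± 29.0, 20.04 ± 1.23 and 178 ± 23.0 FPKM (SD, n = 3) in Undifferentiated, Differentiated and Lysfree cells. It rose by 3.21 on the log2 scale in Lysfree vs Differentiated (SE 0.10, edgeR adjusted p = 5.2e-16), and Loxl4 by 2.83 (edgeR adjusted p = 2.1e-13). Lox thus rose where its substrate Eln fell, and its level was 61.5 times that of Eln in Undifferentiated, 10.5 times in Differentiated and 486 to 1002 times in Lysfree libraries. Of 6 proteases that can degrade elastin, Ctsk (3.60, edgeR adjusted p = 1.5e-15), Ctsl (2.74, 1.8e-15) and Mmp2 (1.74, 1.1e-13) rose and Mmp9 fell (-2.75, SE 0.42, edgeR adjusted p = 1.5e-05). Ctsk stood at 81.7 ± 3.64, 9.09 ± 1.20 and 105 ± 9.72 FPKM in the 3 groups. Among 9 receptor genes, none of the 6 integrins was a DEG. Itgav, Itgb1, Itgb3 and Itgb5 were higher by less than 2-fold (log2 fold changes 0.71 to 0.78, edgeR adjusted p = 2.3e-07 to 1.2e-05). At that threshold of 0.05, 19.7% of all genes tested were higher. Itga5 and Itga8 did not pass it. Neu1 (1.82) and Ctsa (1.76), the lysosomal partners of the elastin receptor complex, rose, while Glb1 of the same list did not pass (0.24, edgeR adjusted p = 0.1).

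Of 25 other matricellular genes, 22 were tested and 6 rose and 4 fell in Lysfree vs Differentiated. Here too both counts include genes with a mean under 1 FPKM over the 9 libraries. Thbs3, a thrombospondin, was at 9.13 ± 1.04, 1.61 ± 0.264 and 22.1 ± 4.31 FPKM (SD, n = 3) in Undifferentiated, Differentiated and Lysfree cells, the largest rise among the listed genes of at least 1 FPKM (log2 fold change 3.85, SE 0.16, edgeR adjusted p = 2.8e-14). Wisp1, of the CCN family, was at 22.6, 2.51 and 30.3 FPKM (3.66, edgeR adjusted p = 1.5e-15), Tgfbi, an integrin ligand, at 46.4, 5.55 and 21.6 FPKM (2.02, edgeR adjusted p = 1.4e-11) and Fstl1 at 741, 116 and 348 FPKM (1.65, edgeR adjusted p = 5e-13). Sparcl1, which like Smoc2 belongs to the SPARC family, went from 122 ± 1.79 to 43.1 ± 2.56 and 11.1 ± 2.42 FPKM (-1.89, SE 0.13, edgeR adjusted p = 1.1e-10), opposite to Smoc2 between the media. The family went both ways. The weakly expressed Smoc1 also fell (-2.14, edgeR adjusted p = 5.1e-07). Sparc, at 326 FPKM in Differentiated and 431 in Lysfree cells, was higher by less than 2-fold (0.46, edgeR adjusted p = 1.4e-05).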

How the data were processed

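The 9 libraries (poly A enrichment, 3T3-L1) were grouped by the sample labels into Undifferentiated, Differentiated and Lysfree, with 3 libraries in each. Per the submitters' processing notes, the authors mapped the reads to mm10 with HISAT2 2.0.5 and counted them per gene with featureCounts 1.5.0-p3, and the deposited counts are not normalized. The strand setting and annotation release are not given in the sources used here. FPKM values, as deposited, cover the same genes. Of the identifiers, 54495 occur in GENCODE vM21 (GRCm38), from which exon overlaps were taken. Total counts of 15880144 to 21806693 per library set the precision, and exact intervals cover counting error only.

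Counts were tested with edgeR 4.0.16 (glmQLFit, glmQLFTest, TMM, Benjamini-Hochberg adjustment over the genes detected in any of the 6 libraries compared) in R 4.3.3, and DEGs had an at least 2-fold change and an adjusted p under 0.05. SE was taken as the log2 fold change over the root of F. Alternatives were DESeq2 1.42.0, median-of-ratios factors, library totals alone, 2 filters on low counts, all 9 libraries in a single fit, a replicate block, limma 3.58.1 on log2(FPKM + 1) and log2(FPKM + 0.1), no fold threshold and leaving out each library. The tests were checked on simulated counts, with changes put only into well-counted genes and the same spread for all genes. That check does not cover changes in weakly counted genes or a deviating library. Protein sequence features were not analysed here. The 10 genes, the other lists, the tests and the naming rule were chosen with earlier results of these data known. Named are the 10 genes, the other listed genes that were DEGs in Lysfree vs Differentiated with a mean of at least 1 FPKM and among the 3 largest such changes of their role in any of the 3 comparisons, and for each of the 10 the gene with the highest Pearson r over the 9 libraries. Genes outside this rule that make up a count of 3 are named as seen afterwards. The integrins, Glb1, Smoc1 and Sparc in Lysfree vs Differentiated were likewise named after their values were seen.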

Additional observations from a re-analysis of the deposited data

How the results depend on the processing

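In Lysfree vs Differentiated, the directions of the 9 genes with an adjusted p under 0.05 held under every alternative run, and the adjusted p of all but Mfap5 stayed under 0.05. Of the 148 values of the 10 genes under the alternatives, 7 lost the adjusted p, all of Mfap5, and 0 reversed a direction that had passed it. The 2-fold threshold was lost by more genes. The log2 fold change of Fbln7, which was not called, ran from -1.15 to 0.34 with a library left out. limma on log2(FPKM + 1), which shrinks changes of weakly expressed genes, called 2 of the 10 genes (Eln and Fbn1) in Lysfree vs Differentiated in place of 6, with Fbln1 at 0.94, Mfap4 at -0.60, Smoc2 at 0.58 and Mfap5 at 0.16 on the log2 scale, 19 of the other listed genes in place of 30, and 2198 genes overall in place of 4507. With it the overall counts were 2726 in Differentiated vs Undifferentiated (5329 otherwise) and 1474 in Lysfree vs Undifferentiated (3426 otherwise). Without the fold threshold the 3 comparisons gave 9280, 11260 and 8428 genes, and the other listed genes called in Lysfree vs Undifferentiated went from 26 to 42. Leaving out 1 library gave 5 to 6 of the 10 genes, 28 to 31 of the other listed genes and 4120 to 4485 genes in Lysfree vs Differentiated, 40 to 42 and 5037 to 5161 in Differentiated vs Undifferentiated, and 24 to 27 and 3093 to 3448 in Lysfree vs Undifferentiated. Replicate numbers are shared between the groups, but same-numbered libraries did not deviate together (r across genes from -0.08 to 0.12). With the replicate number as a block, 5 of the 10 genes and 4173 genes in all were called in Lysfree vs Differentiated, and the call lost was that of Mfap5. Depth limits Mfap4, Fbln7, Mfap5 and Smoc2, which had 3 to 53 counts in all in at least 1 of the groups.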

Other observations

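For each of the 10 genes, the gene with the most similar profile was looked for among 12700 others whose mean was 1 CPM (counts scaled to the library total) or more, by Pearson r of log2(CPM + 1) over the 9 libraries. Since the libraries form 3 groups, such an r mostly reflects the group means, and between 18 and 89 genes had an r over 0.99 with each of the 10, so the values are given as a description. Smoc2 was closest to Dlk1 (r = 0.999), the preadipocyte factor, which stood at 270 FPKM in Undifferentiated, 30.3 in Differentiated and 65.2 in Lysfree cells. Fbln7 was closest to Cxcl12 (r = 0.999), a chemokine, at 294, 40.6 and 38.7 FPKM. Fbn1 was closest to Smad3 (r = 0.998), a TGF-beta signal transducer, at 18.7, 6.99 and 15.9 FPKM, and Eln to Acvrl1 (r = 0.997), a receptor of the TGF-beta family, at 5.70, 3.19 and 1.45 FPKM. Fbln2 was closest to Creb3l1 (r = 0.999), a transcription factor, at 118, 23.7 and 53.5 FPKM, and Fbln1 to Pltp (r = 0.999), a phospholipid transfer protein, at 82.9, 14.7 and 27.1 FPKM. The closest genes of Mfap4, Efemp2, Fbln5 and Mfap5 were C1s1, Ssc5d, Smim14 and Ip6k1 (r = 0.999, 0.997, 0.996 and 0.997).

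Fbn1 overlaps Gm9913 on the other strand, which shares 20.1% of the exonic bases of Fbn1 and had 0 to 11 counts in the 9 libraries. Eln shares 3.3% of its exonic bases with Gm30003, which had 0 counts in every library, and Smoc2 overlaps AC169675.1 without a shared exonic base.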
